A study of Mus musculus with 6 samples.

Results

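Described here are 10 genes that mark layer 2/3 excitatory neurons in mouse primary visual cortex (V1): Otof, Adamts2, Lamp5, Stard8, Cux2, Cdh13, Trpc6, Chrm2, Rasgrf2 and Calb1. They were picked by symbol from the 52636 genes of the count table, and all 10 were among the 20473 genes that passed the filter on low counts. The list was drawn up with the differences between hemispheres in these libraries already known. Fold changes and p-values of the 10 genes are therefore given as a description and support nothing further.

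RNA came from wild-type C57BL/6J animals aged 28 postnatal days whose right eyelids had been closed by suture 3 days earlier (monocular deprivation). Contralateral V1 is the left hemisphere, opposite the sutured eye, and ipsilateral V1 is the right hemisphere of the same animal. Each of 3 mice gave 1 contralateral and 1 ipsilateral library of total RNA from micro-dissected tissue, so both hemispheres of all mice had lived with the suture and no undeprived mouse is among the groups. V1 pieces hold all layers and all cell types, and in such bulk samples fewer cells of a type and less RNA per cell cannot be told apart.

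Layer 2/3 neurons receive visual input from layer 4 and send axons within the cortex, to other areas and across the corpus callosum. In mice their molecular types mature after eye opening, and single-nucleus studies of V1 found that part of this maturation depends on vision. In that work Cdh13, Trpc6 and Chrm2 label types that lie at successive depths of the layer. Adamts2 names another group of layer 2/3 neurons in transcriptomic catalogues of mouse cortex, beside groups named for Agmat and Baz1a.

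Libraries held 17849253 to 32213500 reads assigned to genes. Reads on mt-Rnr1, a mitochondrial ribosomal RNA, were few in some libraries and many in others, at 14.5 to 35.9 CPM (reads scaled to a library of 1000000 after TMM normalization) in contralateral 1, ipsilateral 1 and ipsilateral 3, and 2243 to 5801 CPM in contralateral 2, contralateral 3 and ipsilateral 2. The split does not follow the hemispheres, but it runs through mouse 3, with contralateral 3 in the high and ipsilateral 3 in the low set. Differences within mouse 3 therefore also span the split, while mice 1 and 2 each have both libraries in the same set. Values within each set are given beside several of the genes. Gene bounds in the count table (GRCm38, strand in brackets) put Otof at chr5:30367062-30461932 (minus), Adamts2 at chr11:50602084-50807573 (plus), Lamp5 at chr2:136052239-136069917 (plus) and Stard8 at chrX:99003248-99074728 (plus). They put Cdh13 at chr8:118283733-119324921 (plus), Trpc6 at chr9:8544142-8680741 (plus) and Chrm2 at chr6:36388084-36528414 (plus), and Cux2 at chr5:121856366-122050102 (minus), Rasgrf2 at chr13:91880400-92131656 (minus) and Calb1 at chr4:15881264-15908064 (plus). Fewest reads were 192, the lowest count of any of the 10 genes in any library, for Adamts2 in ipsilateral 1.

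Levels of the 10 genes were compared with each other per length, as TPM (reads per base of exon, scaled to a sum of 1000000 per library), over the 6 libraries. These come from 3 mice, so the SD pools both hemispheres of each animal and includes any difference between them. Lamp5, a membrane protein of the lysosome-associated family, was the most abundant at 170 ± 42.3 TPM (SD, n = 6) and stood above the next gene in 6 of 6 libraries. Calb1, the calcium buffer calbindin, had 125 ± 28.9 TPM. Cux2, a homeodomain transcription factor of upper-layer neurons, had 122 ± 26.7 TPM. Rasgrf2, a calcium-responsive exchange factor for Ras and Rac, had 116 ± 19.2 TPM. Calb1, Cux2 and Rasgrf2 did not differ beyond their spread, with each ahead of the next in 3 of 6 libraries for the first 2 pairings in that order.

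The other genes were less abundant, and the range of Rasgrf2 did not touch that of Stard8, the next in order. Stard8, a protein with a lipid-binding START domain, had 30.3 ± 7.49 TPM. Otof, the calcium sensor otoferlin known from vesicle release in inner hair cells, had 21.7 ± 7.63 TPM. Chrm2, the M2 muscarinic acetylcholine receptor, had 16.7 ± 5.73 TPM and Cdh13, the GPI-anchored T-cadherin, 16.5 ± 2.11 TPM. Chrm2 and Cdh13 overlapped, each higher in 3 of the 6 libraries. Trpc6, a cation channel opened by diacylglycerol, had 9.26 ± 1.34 TPM, and Adamts2, an extracellular protease that trims procollagens, was lowest at 5.55 ± 2.52 TPM. The ranges of Stard8, Otof and Chrm2 overlapped with their neighbours, those of Cdh13 and Trpc6 did not, and those of Trpc6 and Adamts2 did.

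**Figure D1:**
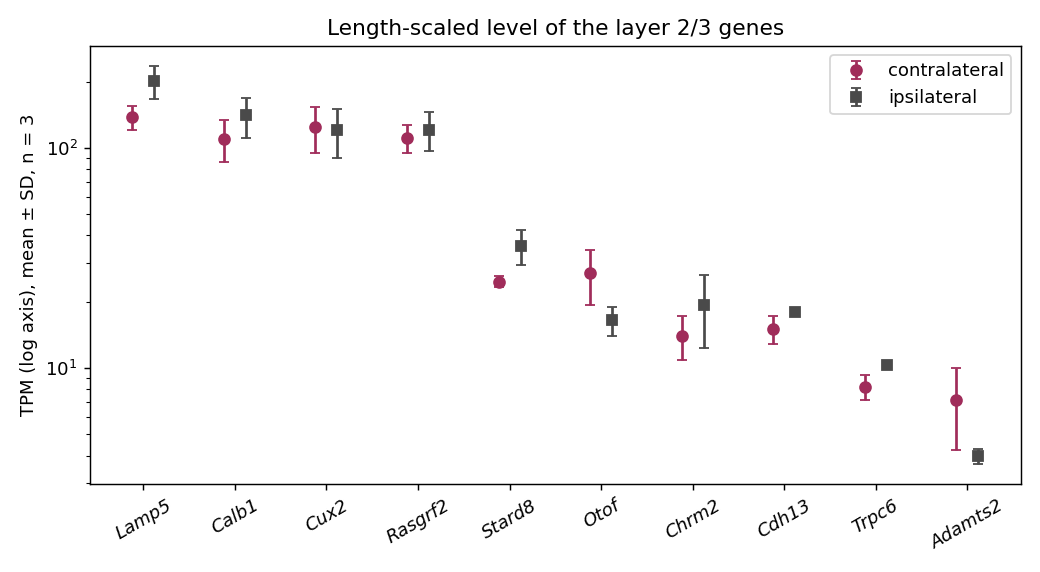
Level per length of the 10 genes in TPM on a log axis, in contralateral (left point) and ipsilateral V1 (right point), as mean ± SD over 3 libraries. Lamp5, Calb1, Cux2 and Rasgrf2 form an upper set and Adamts2 is lowest, at 5.55 TPM over all libraries.

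The comparison between hemispheres asks how the V1 opposite the deprived eye differs from the V1 on its own side. Contralateral V1 was the left hemisphere in all 3 mice, so a difference between left and right cannot be told apart from one of deprivation. In edgeR's quasi-likelihood test over all libraries, 0 of the 10 genes passed an adjusted p under 0.05, against 0.127% of all genes tested, and 4 had an unadjusted p under 0.05, against 6.15% of all genes. With the mouse fitted as a block, which removes differences between animals, 2 of the 10 genes passed as higher in contralateral V1 and 2 as lower. Over all genes tested that fit called 0.195% as higher and 0.698% as lower. Because the genes were chosen with this contrast known, nothing is read from these counts. By range, 2 of the 10 genes had all contralateral libraries above all ipsilateral ones (6.70% of all genes) and 3 had all of them below (6.29%). In 3 of 3 mice 3 of the 10 were higher and 5 were lower in contralateral V1, and 36.5% of all genes kept 1 sign in this way. The 4 genes that passed with the block were Otof and Adamts2, which were higher in contralateral V1, and Lamp5 and Stard8, which were lower.

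Otof stood at 68.9, 49.6 and 49.5 CPM in contralateral V1 of mice 1 to 3 and at 37.0, 32.9 and 29.3 CPM in ipsilateral V1. All 3 contralateral libraries were above all 3 ipsilateral ones, with contralateral 1 the highest. The groups averaged 56.0 ± 11.2 CPM in contralateral and 33.1 ± 3.82 CPM in ipsilateral V1 (SD, n = 3 each). The log2 fold change was 0.76 (SE 0.16, adjusted p = 0.161 in edgeR), or 1.70-fold, and 0.75 (SE 0.10, adjusted p = 4.89e-04) with the mouse as a block. Within mice 1, 2 and 3 the log2 difference was 0.89, 0.59 and 0.75. The value was 1.05 (adjusted p = 0.0556) among libraries low in mt-Rnr1 and 0.59 (adjusted p = 0.641) among those high in it. One hemisphere is a lone library in each of these sets, and its spread is taken from the pair on the other side.

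Adamts2 had 23.9, 14.1 and 14.2 CPM in contralateral V1 of mice 1 to 3, against 9.59, 10.2 and 8.57 CPM in ipsilateral V1. The groups did not overlap, and contralateral 1 again stood above the other two contralateral libraries. The means were 17.4 ± 5.61 CPM in contralateral and 9.47 ± 0.841 CPM in ipsilateral V1 (SD, n = 3 each). On the log2 scale the fold change was 0.88 (SE 0.21, adjusted p = 0.306), or 1.84-fold, and 0.84 (SE 0.16, adjusted p = 0.0115) with the mouse as a block. Mouse 1 carried the largest difference on the log2 scale, 1.27, against 0.45 in mouse 2 and 0.70 in mouse 3. Without contralateral 1 the log2 fold change was 0.58, and with the block and without mouse 1 it was 0.56 and no longer passed (adjusted p = 0.168). Within the low mt-Rnr1 libraries it was 1.39 and within the high ones 0.47. Contralateral 1, the highest library for Adamts2, is the only contralateral library of the low set. Ipsilateral 2 is the only ipsilateral library of the high set.

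Because fibroblasts also make Adamts2, the 8 meningeal and fibroblast markers were set beside it. Their summed level was 66.3 to 96.9 CPM in contralateral and 61.5 to 109 CPM in ipsilateral V1, so the groups overlapped, and 0 of the 8 passed in either fit, with a median log2 fold change of -0.25. Their part in the Adamts2 values was not tested.

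The promoter of Adamts2 is shown with that of Stard8 and Lamp5 to print the start regions of genes that lay on opposite sides of the comparison. The windows run from 250 bases before to 50 bases after a RefSeq start (GRCm38.p6). Capitals mark the GC box, GGGCGG on either strand, to which factors of the Sp family are known to bind.
Adamts2, chr11:50601835-50602134, plus strand: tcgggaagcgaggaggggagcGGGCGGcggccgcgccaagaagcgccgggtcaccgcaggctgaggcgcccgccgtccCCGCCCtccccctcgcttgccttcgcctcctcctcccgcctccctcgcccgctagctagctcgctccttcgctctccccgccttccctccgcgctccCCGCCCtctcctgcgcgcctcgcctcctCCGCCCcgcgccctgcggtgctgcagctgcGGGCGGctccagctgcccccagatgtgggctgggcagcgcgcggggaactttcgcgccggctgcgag
Stard8, chrX:99042331-99042630, plus strand: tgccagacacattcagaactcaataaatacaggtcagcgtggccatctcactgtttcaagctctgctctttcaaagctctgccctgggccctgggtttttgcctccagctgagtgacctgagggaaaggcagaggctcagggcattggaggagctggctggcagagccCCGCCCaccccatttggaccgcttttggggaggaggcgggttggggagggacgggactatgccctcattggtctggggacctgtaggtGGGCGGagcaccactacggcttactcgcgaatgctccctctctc
Lamp5, chr2:136052089-136052388, plus strand: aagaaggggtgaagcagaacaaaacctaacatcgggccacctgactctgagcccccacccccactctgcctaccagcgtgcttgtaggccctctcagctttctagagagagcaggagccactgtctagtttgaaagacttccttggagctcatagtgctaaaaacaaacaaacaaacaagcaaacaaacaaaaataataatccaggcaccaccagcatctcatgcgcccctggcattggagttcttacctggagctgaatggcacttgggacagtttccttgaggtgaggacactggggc

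The Adamts2 window held 5 GC boxes and was 77.3% G and C, the Stard8 window 2 at 59.3% and the Lamp5 window shown none at 50.7%. A further Lamp5 window, chr2:136057498-136057797, is not shown and held none at 48.3%. The median over all windows was 52.7%. Of 32851 windows in the table, 35.7% held a GC box. RefSeq windows were found for 7 of the 10 genes, 9 windows in all, and 3 of the 9 held the motif (Adamts2, Stard8 and Chrm2). Motifs of activity-regulated factors were searched on both strands in the same way: the cyclic AMP response element TGACGTCA, the AP-1 site TGANTCA and the Egr site GCGNGGGCG, which can overlap a GC box. None of the 9 windows held any of these letters, against 1.79%, 7.81% and 5.55% of all windows. The Stard8 window lies at a start inside the gene bounds of the count table (chromosome X, 99003248 to 99074728), not at its first base.

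Lamp5 had 104, 93.3 and 128 CPM in contralateral V1 of mice 1 to 3 and 145, 151 and 152 CPM in ipsilateral V1. All contralateral libraries lay below all ipsilateral ones, and the ipsilateral values were close together. The means were 108 ± 17.7 CPM in contralateral and 149 ± 3.62 CPM in ipsilateral V1 (SD, n = 3 each). Lamp5 had a log2 fold change of -0.46 (SE 0.13, adjusted p = 0.548), and -0.47 (SE 0.10, adjusted p = 0.0329) with the mouse as a block. It was lower in 3 of 3 mice, with log2 differences of -0.48, -0.69 and -0.24. With the block and without mouse 2 it did not pass (-0.36, adjusted p = 0.0678). The fold change was -0.53 among libraries low and -0.45 among those high in mt-Rnr1.

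Stard8 had 34.8, 34.1 and 39.8 CPM in contralateral V1, against 54.6, 46.9 and 47.8 CPM in ipsilateral V1. The groups did not overlap, and averaged 36.2 ± 3.12 CPM in contralateral and 49.8 ± 4.19 CPM in ipsilateral V1 (SD, n = 3 each). For Stard8 the log2 fold change was -0.46 (SE 0.13, adjusted p = 0.511), and -0.46 (SE 0.10, adjusted p = 0.0393) with the mouse as a block. The differences within mice were -0.64, -0.46 and -0.26. With the block it did not pass without mouse 1 (-0.40, adjusted p = 0.155) or without mouse 2 (-0.46, adjusted p = 0.0689). It was -0.57 among libraries low and -0.35 among those high in mt-Rnr1.

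**Figure D2:**
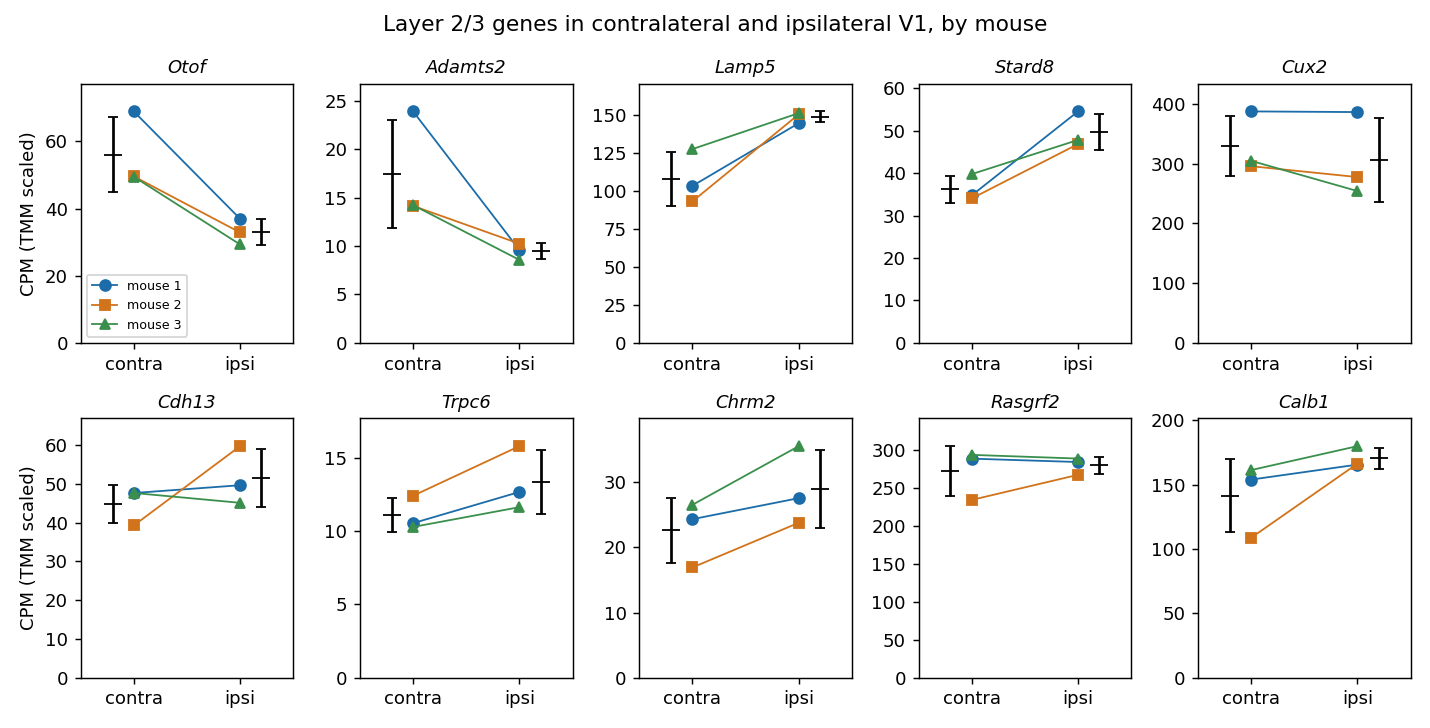
TMM-scaled CPM of the 10 genes in contralateral (left) and ipsilateral V1 (right). Lines join both hemispheres of a mouse, and black bars give mean ± SD over 3 libraries. The groups do not overlap for Otof, Adamts2, Lamp5, Stard8 and Calb1, and overlap for the other genes.

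Lamp5, Calb1 and Chrm2 are also made by GABAergic interneurons, so 18 interneuron markers were set beside them. Their summed level was 487 to 553 CPM in contralateral and 643 to 742 CPM in ipsilateral V1. The median log2 fold change was -0.31, against 0.03 over all genes, with 16 of 18 below 0. None was at 0 reads in all libraries. Without the block 0 of the 18 passed, and with it, against 0.698% of all genes, 4 passed as lower. These were Gad1 (-0.56, adjusted p = 0.278 without and 0.00558 with the block), Vip (-0.62, 0.200 and 0.00754), Gad2 (-0.48, 0.452 and 0.0301) and Dlx6os1 (-0.54, 0.553 and 0.0451). With the block, Gad2 did not pass without mouse 1 (adjusted p = 0.0964) or mouse 2 (0.0689), nor Dlx6os1 without mouse 1 (0.138) or mouse 3 (0.111), while Gad1 and Vip passed without each mouse. Within libraries, the TPM ratio of Lamp5 to Gad1, which makes GABA, was 2.00, 2.07 and 2.26 in contralateral and 1.79, 2.26 and 1.94 in ipsilateral V1, so these ratios overlapped. Ndnf, a marker of the interneurons that share Lamp5, was named after its values were seen and had 9.71, 13.8 and 12.9 CPM in contralateral and 12.3, 15.8 and 13.1 CPM in ipsilateral V1. As Gad1 was itself lower in contralateral V1, ratios to it, here and below, describe the libraries and test nothing. The part of interneurons in the Lamp5 difference was not tested.

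Calb1 had 154, 109 and 161 CPM in contralateral V1 and 166, 166 and 180 CPM in ipsilateral V1. The groups did not overlap, as for 13.0% of all genes tested, but the log2 fold change of -0.27 (SE 0.15) did not pass without (adjusted p = 0.824) or with the block (adjusted p = 0.244). Mouse 2 gave -0.61 and mice 1 and 3 gave -0.10 and -0.16, and the fold change was -0.11 without contralateral 2. The Calb1 to Gad1 ratio of TPM was 1.80, 1.46 and 1.73 in contralateral and 1.24, 1.51 and 1.40 in ipsilateral V1, again with overlap.

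The genes of the vision-dependent types came next. Cdh13 had 47.6, 39.3 and 47.6 CPM in contralateral and 49.6, 59.7 and 45.1 CPM in ipsilateral V1. Only the libraries of mouse 2 stood apart, with a log2 difference of -0.60, against -0.06 in mouse 1 and 0.08 in mouse 3. The fold change was -0.20 (SE 0.14, adjusted p = 0.847 without and 0.50 with the block), 0.01 without mouse 2, -0.08 without ipsilateral 2 and -0.11 without contralateral 2. Among libraries low in mt-Rnr1 it was -0.0022, against -0.46 among those high in it.

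Trpc6 had 10.6, 12.4 and 10.3 CPM in contralateral and 12.7, 15.8 and 11.6 CPM in ipsilateral V1. It was lower in 3 of 3 mice, with log2 differences of -0.25, -0.34 and -0.17, as 17.3% of all genes were, but the groups overlapped. The log2 fold change of -0.27 (SE 0.17) did not pass in either fit (adjusted p = 0.833 and 0.408), and was -0.14 without ipsilateral 2. The gene Gm32014 overlaps Trpc6 on the other strand and had up to 203 reads in a library, close to the 212 of the lowest Trpc6 count. The Trpc6 counts are therefore uncertain where the counting did not separate strands. To a smaller degree the same holds for Adamts2 (Gm12198, up to 41 reads, against a lowest count of 192). It also holds for Chrm2 (9330158H04Rik, up to 64 reads, against a lowest count of 316).

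Chrm2 had 24.3, 16.9 and 26.5 CPM in contralateral and 27.6, 23.8 and 35.5 CPM in ipsilateral V1. Each mouse was lower on the contralateral side, with log2 differences of -0.18, -0.48 and -0.41, yet the groups overlapped. Chrm2 had a log2 fold change of -0.36 (SE 0.19, adjusted p = 0.824), and -0.36 (SE 0.11, adjusted p = 0.152) with the block, so it did not pass. It was -0.19 without contralateral 2 and -0.19 without ipsilateral 3, and -0.39 among libraries low and -0.13 among those high in mt-Rnr1. The TPM ratio of Chrm2 to Gad1 was 0.228, 0.182 and 0.228 in contralateral and 0.165, 0.173 and 0.221 in ipsilateral V1, with overlap. Within each mouse this ratio was higher on the contralateral side. Thus none of the 3 type markers Cdh13, Trpc6 and Chrm2 passed in either fit. All 3 fold changes were below 0 over all libraries, where the median over all genes was 0.03.

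Of the 1488 circular RNAs counted from back-splice reads, 1 had a host among the 10 genes: a circle from Trpc6 (chromosome 9, 8634047 to 8658377, plus strand), here called circTrpc6. Its ends match the start of exon 4 and the end of exon 10 of the GENCODE transcript with 13 exons, and the 7 exons from there hold 1356 bases if all are kept. They match as well exons 4 to 9 of a transcript with 12 exons, where the 6 exons hold 1122 bases. The junction was read from the GENCODE transcript sequences and is shown because it tells the circle from the linear transcript. It joins the last 20 bases of the final exon of the circle, in lower case, to the first 20 of exon 4, in capitals.
circTrpc6, back-splice junction: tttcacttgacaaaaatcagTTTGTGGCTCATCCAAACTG

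CircTrpc6 had 10, 21 and 21 back-splice reads in contralateral and 25, 35 and 17 in ipsilateral V1, of 13428 to 26867 per library. The groups overlapped, and the lowest was contralateral 1. With 129 reads in all it ranked 138 of 1488, against a median of 35 reads. The log2 fold change was -0.40 (SE 0.42, adjusted p = 0.999 without and 0.993 with the block), so it did not pass. In edgeR 0 of 1468 circRNAs passed without or with the block, with 52 (3.54%) at an unadjusted p under 0.05, and 0 passed in DESeq2. Per 1000 gene reads of Trpc6, the circle had 47.2, 90.5 and 94.2 reads in contralateral and 98.4, 71.7 and 59.9 in ipsilateral V1, which also overlapped.

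Cux2 and Rasgrf2, the most abundant of the 10 genes in reads, differed least between hemispheres. Cux2 had 388, 296 and 305 CPM in contralateral and 387, 278 and 254 CPM in ipsilateral V1, with mouse 1 high on both sides. Its log2 fold change was 0.11 (SE 0.17, adjusted p = 0.935 without and 0.663 with the block). Rasgrf2 had 289, 235 and 294 CPM in contralateral and 285, 268 and 289 CPM in ipsilateral V1, a log2 fold change of -0.04 (SE 0.13, adjusted p = 0.968 without and 0.877 with the block). Cux2 turned its sign without contralateral 1 (-0.03) or ipsilateral 3 (-0.02), and Rasgrf2 without contralateral 2 (0.06). Cux2 was at 0.26 among libraries low and 0.11 among those high in mt-Rnr1.

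**Figure D3:**
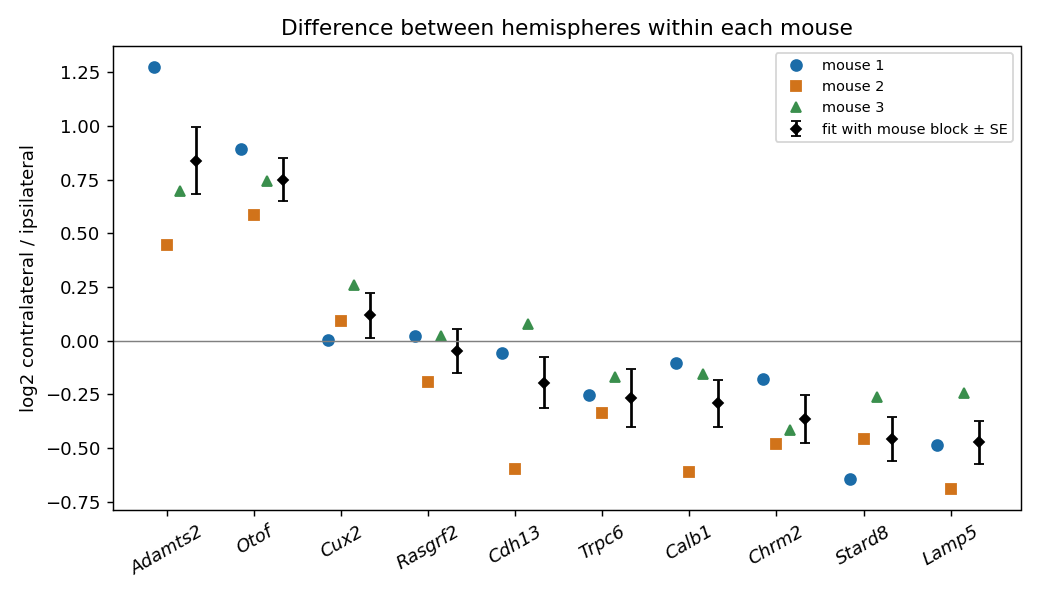
Difference between hemispheres within each mouse, as log2 contralateral over ipsilateral CPM, for the 10 genes in order of the fitted change. Colored points are mice, and black diamonds give the fit with the mouse as a block ± SE. Points of all 3 mice lie above 0 for Adamts2, Otof and Cux2 and below 0 for Stard8, Lamp5, Trpc6, Chrm2 and Calb1. Mouse 2 stands apart for Cdh13 and Calb1.

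Differences between animals, a contrast other than that of the hemispheres, were tested across all genes with the hemisphere as a term, a test added after the values were seen. Of the 10 genes 2 passed, Chrm2 (adjusted p = 0.0251 in edgeR) and Cux2 (adjusted p = 0.0427), against 6.41% of all genes tested. Chrm2 was lowest in mouse 2 in both hemispheres, and Cux2 was highest in mouse 1 in both. Otof did not pass (adjusted p = 0.0856).

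Ratios between genes of the same library do not depend on the scaling between libraries. The TPM ratio of Otof to Lamp5 was 0.247, 0.197 and 0.144 in contralateral and 0.0946, 0.0810 and 0.0718 in ipsilateral V1. That of Adamts2 to Stard8 was 0.404, 0.244 and 0.210 in contralateral and 0.103, 0.129 and 0.105 in ipsilateral V1. Neither ratio overlapped between hemispheres, and each was higher on the contralateral side in 3 of 3 mice. As both pairs were formed from genes on opposite sides of the comparison, these ratios describe the libraries and test nothing.

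Of 15 other upper-layer genes, 0 passed without the block. With it 1 passed as higher and 1 as lower, against 0.195% and 0.698% of all genes. The 15 had a median log2 fold change of -0.06, against 0.03 over all genes and -0.24 over the 10 genes. Baz1a, a chromatin-remodelling subunit whose name marks one of the layer 2/3 groups, had 3.53, 6.32 and 3.92 CPM in contralateral and 13.5, 9.75 and 10.3 CPM in ipsilateral V1. These groups did not overlap, with a log2 fold change of -1.28 (SE 0.24, adjusted p = 0.0951) and -1.30 (adjusted p = 0.00314) with the block. It was -1.76 among libraries low in mt-Rnr1, where contralateral 1 is the only contralateral library. Among those high in it, where ipsilateral 2 is the only ipsilateral library, it was -0.94. The TPM ratio of Adamts2 to Baz1a was 5.18, 1.72 and 2.78 in contralateral and 0.545, 0.805 and 0.636 in ipsilateral V1. This pair too was formed from genes on opposite sides of the comparison, so its ratio describes the libraries and tests nothing. Baz1a had few reads, from 71 in contralateral 1 to 301 in ipsilateral 2. Mdga1, a GPI-anchored adhesion protein of upper layers, had 52.5, 34.2 and 35.7 CPM in contralateral and 38.5, 27.1 and 23.4 CPM in ipsilateral V1, a fold change of 0.46 (adjusted p = 0.797 without and 0.0353 with the block). Mdga1 lost this call in the blocked fit without mouse 1 (adjusted p = 0.141) or mouse 3 (0.173), and without the block it was 0.23 without contralateral 1. Agmat, named after its values were seen, had 0.161 to 0.646 CPM in contralateral and 0.749 to 0.861 CPM in ipsilateral V1 and did not pass (log2 fold change -0.90, adjusted p = 0.824 without and 0.405 with the block). Cux1, the closest relative of Cux2, had 259 to 293 CPM in contralateral and 264 to 277 CPM in ipsilateral V1.

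**Figure D4:**
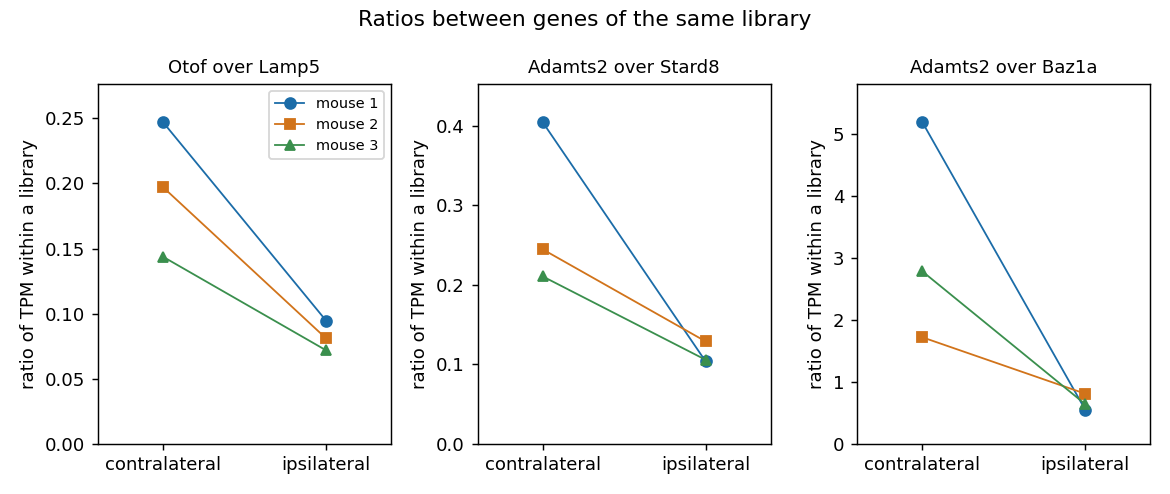
Ratios of TPM between genes of the same library, in contralateral (left) and ipsilateral V1 (right), with lines joining both hemispheres of a mouse. Otof over Lamp5, Adamts2 over Stard8 and Adamts2 over Baz1a are all higher in the 3 contralateral libraries, up to 5.18 for Adamts2 over Baz1a in mouse 1 against 0.545 on its ipsilateral side. All pairs were formed from genes on opposite sides of the comparison, so the ratios test nothing.

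Markers of other cells were set beside the layer 2/3 genes over all libraries. Of all genes tested, 0.127% passed as lower without the block and 0.698% with it. No marker of layer 4 passed in either fit (6 tested, median 0.05), and its most abundant gene Rorb had 304 to 364 CPM in contralateral and 304 to 352 CPM in ipsilateral V1. Layer 5 (8 tested, median -0.15) and layer 6 markers (9 tested, median -0.29) held 1 and 2 genes that passed as lower with the block only, Etv1 (-0.51, adjusted p = 0.0456), Ccn2 (-0.81, adjusted p = 0.00849) and Tle4 (-0.41, adjusted p = 0.0393). Leaving out a mouse ended each of these calls, for Etv1 without mouse 2 (-0.30, adjusted p = 0.111), for Ccn2 without mouse 1 (0.0652) and for Tle4 without mouse 1 (0.0977) or mouse 3 (0.136). Summed layer 6 markers had 155 to 184 CPM in contralateral and 185 to 214 CPM in ipsilateral V1. Pan-excitatory markers had a median of 0.02, with Camk2a at 3245 to 3606 CPM in contralateral and 2550 to 3445 CPM in ipsilateral V1. No gene passed in either fit among the hippocampal (median 0.11, led by Zbtb20), endothelial and mural (0.07, Rgs5), astrocyte (0.04, Slc1a3), oligodendrocyte (-0.18) and microglial lists (0.15, Csf1r). Of 14 immediate early genes, the fast response to neuronal firing, 10 fell without and 14 with the block, with a median of -1.45. Their summed level was 478 to 728 CPM in contralateral and 1455 to 1718 CPM in ipsilateral V1, and the groups did not overlap. Among them the transcription factor genes Egr2 (-2.95), Fos (-2.02), Nr4a1 (-1.71), Egr1 (-1.56) and Junb (-1.27) fell in edgeR without the block. The part of these genes in the values of Otof and Adamts2 was not tested.

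**Figure D5:**
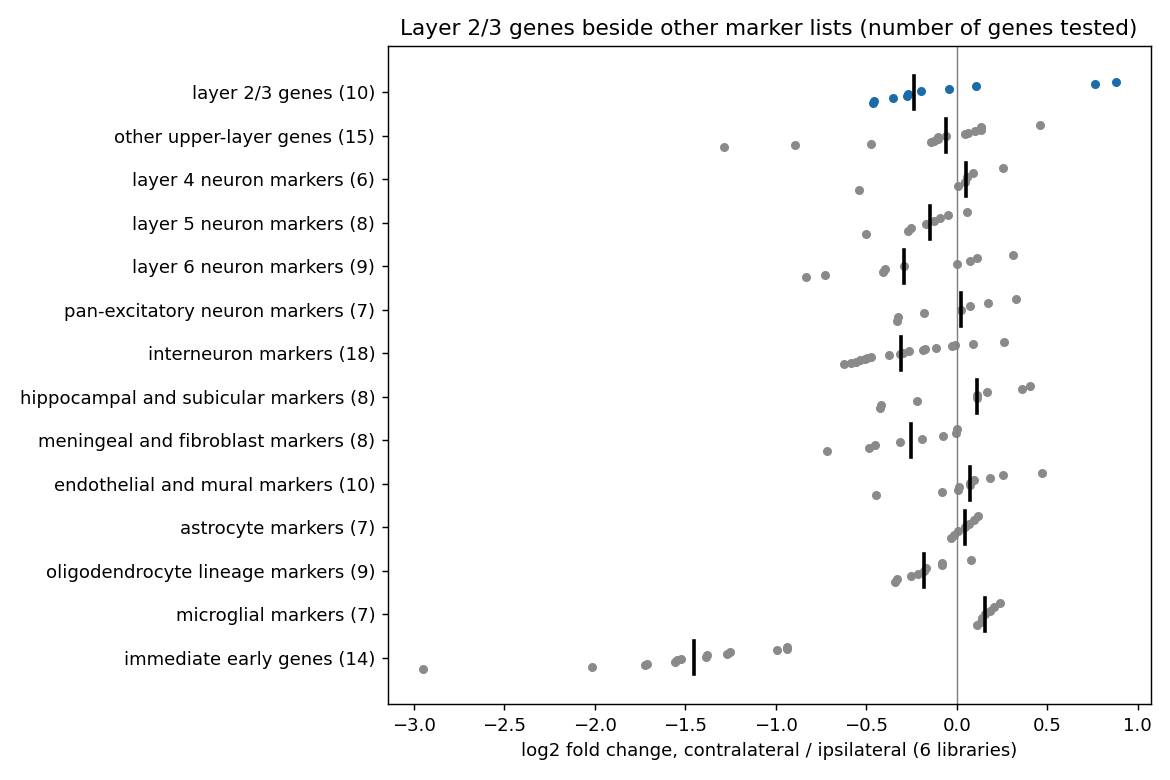
Log2 fold changes, contralateral over ipsilateral over 6 libraries without the block, of the 10 layer 2/3 genes (blue) and of other marker lists (grey), 1 point per gene and a black bar at each median. The layer 2/3 genes run from -0.46 for Lamp5 to 0.88 for Adamts2, with a median of -0.24, and the immediate early genes lie farthest below 0.

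Patterns were compared by the Pearson correlation of log2 CPM over the 6 libraries. Genes most alike were sought among 11062 genes with a mean of at least 5 CPM, with predicted-gene and clone names left out. For Otof these were Plekha6 (0.993) and Nudt13 (0.991), for Adamts2 Mxra7 (0.998) and Fam126a (0.995), for Lamp5 Minar1 (0.997) and Tanc2 (0.997), and for Stard8 Fam196a (0.998) and Arhgef3 (0.995). With 6 libraries that share hemisphere, mouse and scaling, these correlations are given as a description, with no test. Among the 10 genes themselves, Otof and Adamts2 correlated at 0.97, Lamp5 and Stard8 at 0.91, and Otof and Lamp5 at -0.83 over the same 6 libraries. Genes that passed in neither fit reached similar values, with Chrm2 and Calb1 at 0.91 and Rasgrf2 and Calb1 at 0.87.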

How the data were processed

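RNA was counted in 6 total-RNA libraries made with a stranded kit, per the labels' protocols. The authors deposited raw read counts per Ensembl gene in a featureCounts layout, with exon lengths, and raw back-splice counts per circRNA, per the file headers. Deposited too, by the authors, is a normalized signal per circRNA, whose sorted values all equal quantile-normalized counts within 1e-04 and were used only as an alternative. HISAT2, featureCounts, limma, DESeq2 and the build GRCm38 are listed in the submitters' processing notes. For versions, the strand setting and the circRNA caller: not given in the sources used here. Symbols came from GENCODE M21 (GRCm38), which holds 52489 of the 52636 IDs. Columns of other samples numbered 0.

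The members and gene lists were chosen with earlier results of these data known. Named genes were the 10 members and, of each other list, up to 4 genes with the smallest p that passed with or without the mouse block and the most abundant gene, plus the 2 genes most alike to each member, of which those of the 4 members with the largest changes are printed. Genes were tested with edgeR 4.0.16 in R 4.3.3 (quasi-likelihood, TMM, low counts removed by filterByExpr, min.count 10 and min.total.count 15), contralateral against ipsilateral, with Benjamini-Hochberg adjustment over 20473 genes. CircRNAs needed 2 reads in 3 libraries. Standard errors are the absolute log2 fold change over the root of F. CPM are TMM-scaled, TPM use the deposited lengths, and log2 differences within a mouse used CPM plus 0.5. DESeq2 1.42.0 and limma 3.58.1 served as alternatives. The tests were checked on simulated counts. Libraries are paired because both hemispheres come from 1 animal. Deviations from group means correlated at 0.508, 0.0979 and 0.221 within mice 1 to 3. Between mice, contralateral 3 with ipsilateral 2 gave 0.193 and contralateral 2 with ipsilateral 3 gave 0.186, each above the value within mouse 2. The other pairings between mice gave -0.364 to -0.236. Replicates are separate animals per the labels' titles. Molecular identifiers are not mentioned in the sources used here. One gene that the rule on named genes picks is not reported here.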

Additional observations from a re-analysis of the deposited data

How the results depend on the processing

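The fit with the mouse as a replicate block called 183 genes and 4 of the 10 layer 2/3 genes, against 26 and 0 without it. DESeq2 called 88 genes and no filter on low counts 109, in each case with 2 of the 10, Otof (adjusted p = 0.0123 and 5.94e-04) and Adamts2 (0.0435 and 0.00319). Within the low mt-Rnr1 libraries, where contralateral 1 is the only contralateral library, the log2 fold change of Adamts2 was 1.39. Leaving out 1 library without the block gave 0 to 35 genes, with 0 of the 10 each time; the count of 0 came without contralateral 2, and contralateral 3 and ipsilateral 2 gave 17 and 16. Without mouse 2 it was 0 genes and without mouse 3 it was 14. The blocked fits that leave out mouse 1, 2 or 3 were added after seeing the data. They gave 250, 174 and 269 genes, of which 2, 2 and 4 were among the 10. The median of the 10 genes kept its sign under all 22 alternatives but rested on mouse 2: it was -0.06 without that mouse, with or without the block, -0.11 without either of its libraries, -0.09 within the low mt-Rnr1 libraries and -0.24 over all. Of 220 values of the 10 genes under them, 212 kept their sign. The others were Cux2 without contralateral 1 (-0.0317) and ipsilateral 3 (-0.02), in a range up to 0.268 when 1 library was left out, Cdh13 without mouse 2 (0.00835, with the block 0.0103), and Rasgrf2 without contralateral 2 (0.0552, in a range from -0.102), without mouse 2 (0.0232, with the block 0.0232) and within the low mt-Rnr1 libraries (5.0e-04). Adjusted p over the alternatives ranged from 5.19e-05 to 1.00 for Otof, 5.29e-04 to 1.00 for Adamts2, 0.00584 to 1.00 for Lamp5 and 0.0128 to 1.00 for Stard8. CircRNAs that passed numbered 0 to 2 when 1 library was left out, 2 without ipsilateral 2, and 0 otherwise. The cause of these changes was not tested.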
